A study of Mus musculus with 6 samples.

Results

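The Ebf transcription factors are 4 genes, Ebf1, Ebf2, Ebf3 and Ebf4, taken by symbol from the 32298 gene rows of the count matrices. They were selected on RNA levels in these same libraries, namely Ebf1 in striatal neurons and Ebf3 in neurons outside the telencephalon, so their RNA levels and RNA differences are given as descriptions with no test. Nuclei of mouse brain (strain C57BL/6J, labelled as brain tumor) were assayed by 10x Multiome, in which RNA and open chromatin (ATAC-seq) come from the same nucleus. In every library, progenitors of the ganglionic eminences had been given Foxr2 by in utero electroporation, a delivery of plasmids into the embryonic brain, from a piggyBac vector driven by the ubiquitous CAG promoter. Foxr2 alone carries the overexpression by itself, and Foxr2 p53LOF adds a loss of function of p53, made with Cas9 and a guide against Trp53. The series holds 3 libraries, Foxr2 p53LOF replicate 1 and Foxr2 alone replicates 1 and 2. Peak lists of all 3 libraries and the counts of both first replicates were used, and the counts of Foxr2 alone replicate 2 were not analysed here. With 1 library of counts per genotype there were no replicates, no test was made, and genotype, animal and library cannot be told apart. The age of the animals and the number of animals behind a library were not given in the sources used here.

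EBF proteins are a small family of helix-loop-helix transcription factors that bind DNA as dimers at a palindromic motif. EBF1 is best known for setting up the B lymphocyte lineage, and in the forebrain it is a marker of the direct pathway spiny projection neurons (SPNs) of the striatum, the neurons that carry the dopamine receptor Drd1, whose differentiation depends on it. EBF2 is known from brown fat cells and Cajal-Retzius cells, EBF3 from neuronal differentiation and a human neurodevelopmental syndrome, and EBF4 is the least studied member, and the family is widely used by young neurons of the midbrain, hindbrain and spinal cord.

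The sequence at the members' starts is shown because promoter accessibility is the readout set beside RNA throughout. RefSeq promoter windows (build GRCm38.p6, 250 bases before to 50 after a gene start) were found for Ebf1, Ebf3 and Ebf4. Ebf1 has a second window, chr11:44619978-44620277, not printed, with 53% G and C, 17 CG dinucleotides and 0 peaks in each library. CG dinucleotides are in capitals.
Ebf1, chr11:44617850-44618149, plus strand: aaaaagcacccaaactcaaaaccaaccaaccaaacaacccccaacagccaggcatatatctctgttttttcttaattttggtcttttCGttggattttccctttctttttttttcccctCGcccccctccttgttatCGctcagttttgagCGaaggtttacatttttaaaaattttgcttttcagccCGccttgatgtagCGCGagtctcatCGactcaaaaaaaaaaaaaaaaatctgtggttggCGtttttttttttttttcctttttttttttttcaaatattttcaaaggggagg
Ebf3, chr7:137314396-137314695, minus strand: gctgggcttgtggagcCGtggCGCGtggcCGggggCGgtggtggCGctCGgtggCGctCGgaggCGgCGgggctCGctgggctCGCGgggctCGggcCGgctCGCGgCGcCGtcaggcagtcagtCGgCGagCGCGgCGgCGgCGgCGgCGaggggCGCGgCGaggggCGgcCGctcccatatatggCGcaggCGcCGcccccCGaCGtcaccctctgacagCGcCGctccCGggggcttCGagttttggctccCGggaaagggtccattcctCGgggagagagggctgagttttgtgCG
Ebf4, chr2:130295689-130295988, plus strand: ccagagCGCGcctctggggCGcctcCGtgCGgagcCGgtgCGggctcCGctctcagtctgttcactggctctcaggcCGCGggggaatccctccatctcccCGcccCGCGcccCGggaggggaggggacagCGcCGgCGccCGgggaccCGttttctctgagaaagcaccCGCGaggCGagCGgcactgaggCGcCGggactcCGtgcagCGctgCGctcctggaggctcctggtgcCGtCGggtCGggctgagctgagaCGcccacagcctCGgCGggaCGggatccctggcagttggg
Each of the printed windows was overlapped by 1 peak in each of the 3 libraries. The printed Ebf1 window was rich in A and T, with 36.7% G and C and 9 CG dinucleotides, and only 5.33% of 32851 promoter windows had a lower share of G and C. The Ebf3 window held 77.0% G and C with 46 CG dinucleotides, and the Ebf4 window 74.3% with 35, beside medians of 52.7% and 7 over all windows. The GC box GGGCGG, searched on both strands, occurred 3 times in the Ebf3 window and 1 time in the Ebf4 window and was in 35.7% of all windows, and it was not in either Ebf1 window. The EBF motif TCCCNNGGGA, which reads the same on both strands, was in 0.904% of all windows and in none of these.

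Ebf1 (ENSMUSG00000057098) spans chr11:44617317-45008091 on the plus strand of mm10, Ebf2 (ENSMUSG00000022053) chr14:67233292-67430918 on the plus strand, Ebf3 (ENSMUSG00000010476) chr7:137193673-137314445 on the minus strand and Ebf4 (ENSMUSG00000053552) chr2:130295169-130370481 on the plus strand. The RefSeq starts behind the printed windows lie 783 bases (Ebf1), 770 bases (Ebf4) and 0 bases (Ebf3) downstream of these gene starts. Genes on the opposite strand overlap Ebf1 (Gm12158), Ebf2 (Gm6878, 1700120O09Rik, 4930438E09Rik, Gm10860 and the miRNA gene Gm23178, which is not among the counted rows) and Ebf3 (Gm45278 and Gm10578), and reads from a gene and its overlapping partner may not have been told apart, since the strand setting of the counting was not given in the sources used here. No annotated gene was found over Ebf4. All 4 members had UMIs in both libraries.

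After filtering, Foxr2 p53LOF kept 8359 nuclei and Foxr2 alone 8316, with medians of 5527 and 3637 UMIs and of 6859 and 8983.5 ATAC counts in peaks. The libraries shared 140 barcodes, and replicate 2 of Foxr2 alone shared 34 with Foxr2 p53LOF and 19 with replicate 1. Neuron-like nuclei numbered 2264 in Foxr2 p53LOF and 4246 in Foxr2 alone, and they lay in different joint clusters, mostly 2, 14 and 16 against 1, 7, 8 and 10. Foxr2 RNA was at 12.0 counts per 1000000 UMIs of the class (CPM) in the neuron-like nuclei of Foxr2 p53LOF and at 2.57 CPM in those of Foxr2 alone, and Trp53 RNA 13.7 CPM and 11.4 CPM, which does not check the guide because a cut gene can still be transcribed. Vector features summed to 105 CPM in the neuron-like nuclei of Foxr2 p53LOF, below the 359 CPM of its immune-like nuclei and the 1138 CPM of its COP-like nuclei (committed oligodendrocyte precursors). UMIs of the Cas9 and guide features were at 0 in both libraries.

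In Foxr2 alone, Ebf1 RNA was concentrated in the Drd1 SPN-like nuclei. These 1145 nuclei held 1187 Ebf1 UMIs, or 145 CPM (95% exact Poisson interval 137 to 154, which, as in every interval below, covers counting error only). The 950 Adora2a SPN-like nuclei, the indirect pathway counterpart marked by an adenosine receptor, held 32 UMIs or 4.97 CPM (3.40 to 7.02). The log2 ratio between both SPN classes was 4.87 (4.36 to 5.42). In the remaining named neuron classes Ebf1 was at 4.82 CPM in the mixed SPN-like nuclei, 4.6 CPM in the cortical glutamatergic-like and 3.30 CPM in the GABAergic interneuron-like nuclei. The intervals of these 3 classes and of the Adora2a SPN-like class overlap, so their order is not resolved by the counts. The 198 unnamed neuron-like nuclei held 38.4 CPM, from 33 UMIs in 2 nuclei.

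A UMI of Ebf1 was found in 47.5% of the Drd1 SPN-like nuclei, at a median of 6878 UMIs per nucleus. It was found in 2.00% of the Adora2a SPN-like nuclei at a median of 6313 UMIs. In oligodendrocyte-like nuclei, taken as a class with little Ebf1 RNA, it was 0.364% at a median of 1172 UMIs. Nuclei under 1000 UMIs were then left out and each of the others was thinned to 1000 UMIs, as in every thinned share at that depth. The shares were then 13.2%, 0.211% (0.0255 to 0.759, exact binomial) and 0.285% (0.105 to 0.619). The last 2 intervals overlap, so the Adora2a SPN-like share was not above that of the oligodendrocyte-like nuclei, and it is not read as expression. The 32 UMIs of the Adora2a SPN-like nuclei lay in 19 nuclei, with up to 6 in 1 nucleus.

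The 2-fold rule asked for 10 CPM or more in 1 class and a log2 ratio of 1 or more in size, with 1 CPM added to both values. Ebf1 was the only member with enough RNA for the rule between the SPN classes and it passed, at 4.61 on that scale, where 1.28% of 9565 genes passed in either direction. Against all other neuron-like nuclei of the library, the SPN-like nuclei held 76.3 CPM of Ebf1 against 6.12 CPM, a log2 ratio of 3.64 (3.35 to 3.94). There 17.5% of 10285 genes passed, and Ebf4, at 0.809 CPM in SPN-like and 10.6 CPM in the other neuron-like nuclei, passed in the opposite direction. Of the 104 Ebf1 UMIs in the other neuron-like nuclei, 33 came from 2 unnamed nuclei, and without unnamed nuclei the log2 ratio was 4.12. With the filter limits set on peak counts it was 2.57.

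The Drd1 SPN-like class was not uniform. Its largest cluster of 921 nuclei held 170 CPM of Ebf1 (160 to 180), a cluster of 152 nuclei held 34.1 CPM (23.6 to 47.6), and a cluster of 72 nuclei held 0 UMIs, with an interval up to 9.65 CPM. The promoter peaks of Ebf1 went down in the same order, from 30.2 to 15.9 to 2.29 ATAC CPM, the counts in those peaks per 1000000 counts in all peaks. The cluster with 0 Ebf1 UMIs had 7.84 CPM of Ebf4 from 3 UMIs, with an Ebf4 promoter of 19.4 ATAC CPM against 1.10 in the largest cluster.

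**Figure D1:**
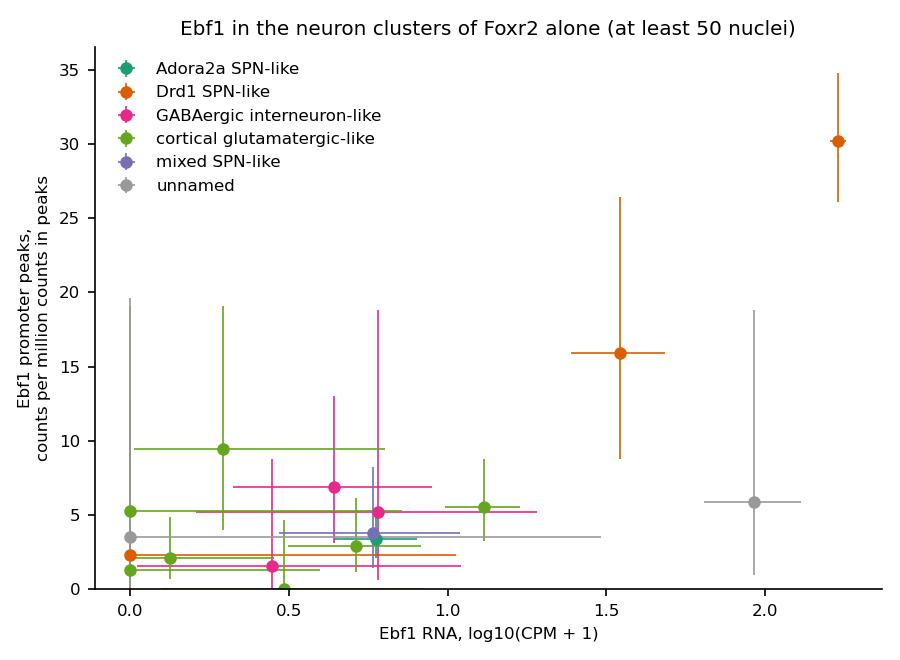
Ebf1 RNA, as log10(CPM + 1), on the horizontal axis against Ebf1 promoter accessibility, in ATAC CPM, on the vertical axis, for the Foxr2 alone neuron clusters of at least 50 nuclei; colours give the class and lines the 95% Poisson intervals. The Drd1 SPN-like cluster of 921 nuclei stands alone at the upper right, at 170 CPM of RNA and 30.2 ATAC CPM.

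Chromatin was read from the same nuclei and took no part in the clustering, though promoter peaks were in view when the members were chosen, so these values are descriptions too. The 2 promoter peaks of Ebf1, within 1000 bases of its start, held 26.9 ATAC CPM (23.4 to 30.8) in Drd1 SPN-like and 3.35 (2.08 to 5.09) in Adora2a SPN-like nuclei, a log2 ratio of 3.01 (2.34 to 3.68). With 1 added to both values Ebf1 passed the 2-fold rule, as did 0.389% of the 12603 genes with enough promoter counts, and it was the only member with enough counts. SPN-like over other neuron-like nuclei gave 15.0 against 4.03 ATAC CPM, a log2 ratio of 1.89 (1.47 to 2.34).

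The peaks over the gene body of Ebf1 also differed between neuron classes that shared a low RNA level. Over Ebf1 there were 22 peaks in Foxr2 alone replicate 1, 11 in Foxr2 alone replicate 2 and 10 in Foxr2 p53LOF. The peaks of these libraries numbered 135201, 99112 and 112924 in all. An intronic peak 7.51 kb inside the gene held 8.54 ATAC CPM (6.60 to 10.9) in Drd1 SPN-like and 0.311 (0.0377 to 1.12) in Adora2a SPN-like nuclei. A peak at 237 kb was open in both, at 21.3 (18.2 to 24.9) against 16.6 (13.6 to 20) ATAC CPM with overlapping intervals, although the RNA differed. Cortical glutamatergic-like nuclei had 1.09 ATAC CPM there, but 7.48 in a peak at 306 kb, where the Drd1 SPN-like and Adora2a SPN-like nuclei had 0.453 and 0.467. A further intronic peak at 48.1 kb, called in all 3 libraries, was open in oligodendrocyte precursor (OPC)-like nuclei, at 28.7 ATAC CPM (17.8 to 43.9) in Foxr2 alone and 58.7 in Foxr2 p53LOF, against 0.433 and 1.60 in oligodendrocyte-like nuclei.

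**Figure D2:**
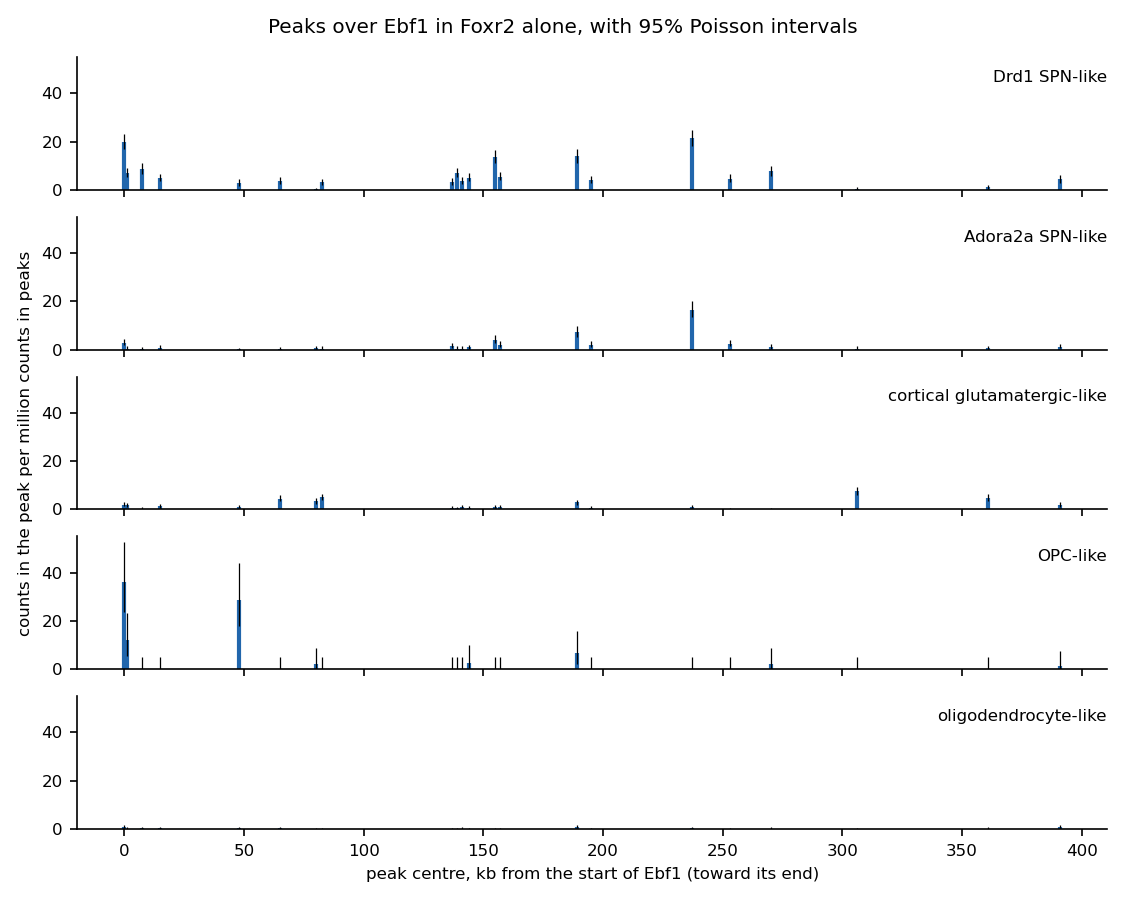
Accessibility in ATAC CPM of each peak over Ebf1 (vertical axis) by distance of the peak centre from the gene start in kb (horizontal axis) in 5 classes of Foxr2 alone, with 95% Poisson intervals. The peak at 237 kb reaches 21.3 in Drd1 SPN-like and 16.6 in Adora2a SPN-like nuclei, and the peak at 48.1 kb reaches 28.7 in OPC-like nuclei.

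The central 200 bases of a pair of intronic elements are given because their signal differed between Drd1 SPN-like and OPC-like nuclei of Foxr2 alone, and they were chosen after their values were seen. The element at 7.51 kb had 0 counts in OPC-like nuclei, with an interval up to 5.04 ATAC CPM, below the interval of the Drd1 SPN-like nuclei. The element at 48.1 kb held 2.85 ATAC CPM (1.78 to 4.31) in Drd1 SPN-like nuclei, under the 28.7 of the OPC-like nuclei. CG dinucleotides are in capitals.
Ebf1 peak at 7.51 kb, chr11:44624728-44624927 (mm10), plus strand: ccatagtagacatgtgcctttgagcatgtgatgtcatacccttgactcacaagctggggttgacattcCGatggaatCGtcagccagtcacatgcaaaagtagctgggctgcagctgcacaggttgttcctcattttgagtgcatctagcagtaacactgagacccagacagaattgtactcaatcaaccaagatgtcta
Ebf1 peak at 48.1 kb, chr11:44665329-44665528 (mm10), plus strand: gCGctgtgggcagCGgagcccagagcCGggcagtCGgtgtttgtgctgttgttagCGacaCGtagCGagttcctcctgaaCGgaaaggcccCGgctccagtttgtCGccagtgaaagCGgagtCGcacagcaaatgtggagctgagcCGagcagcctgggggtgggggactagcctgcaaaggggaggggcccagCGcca
The element at 7.51 kb has 47.0% G and C and 2 CG dinucleotides and was called as a peak in 1 library, Foxr2 alone replicate 1. The element at 48.1 kb has 65.0% G and C and 14 CG dinucleotides.

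Outside neurons, Ebf1 RNA was high in OPC-like and vascular nuclei. The OPC-like nuclei held 153 CPM (119 to 193, 69 UMIs in 168 nuclei) in Foxr2 alone and 108 CPM (75.2 to 150, 35 UMIs in 94 nuclei) in Foxr2 p53LOF. A UMI was found in 25.6% and 25.5% of them, and their promoter peaks held 48.5 and 57.0 ATAC CPM, the highest of any class of at least 50 nuclei. Mural markers, which define the pericytes and smooth muscle cells that carry much Ebf1, summed to 42.0 CPM in the OPC-like nuclei of Foxr2 alone (5 of 8 above 0; Kcnj8, Abcc9 and Higd1b at 0) and to 12.3 CPM in those of Foxr2 p53LOF (2 of 8 above 0; Pdgfrb, Rgs5, Kcnj8, Abcc9, Vtn and Higd1b at 0), and their part in the Ebf1 level was not tested. The few mural-like nuclei, 6 and 9, held 3910 and 2886 CPM, and the 18 and 32 endothelial-like nuclei 435 and 759 CPM. All 8 mural markers were above 0 in the endothelial-like nuclei of both libraries, from 60.1 CPM (Kcnj8) to 1066 CPM (Vtn) in Foxr2 alone and from 24.7 CPM (Higd1b) to 500 CPM (Rgs5) in Foxr2 p53LOF, and their part in that Ebf1 level was not tested. Mature oligodendrocyte-like nuclei held only 2.80 and 2.94 CPM, and the COP-like nuclei of Foxr2 p53LOF 2.85 CPM. COP-like promoter peaks of Ebf1 nevertheless held 21.2 ATAC CPM (18.0 to 24.7) against 3.33 (1.80 to 5.64) in the oligodendrocyte-like nuclei of that library.

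Astrocyte-like nuclei of Foxr2 alone held 23.0 CPM of Ebf1 (16 to 32.0) and those of Foxr2 p53LOF 3.16 CPM. They lay in different joint clusters, mostly 11 and 6. In Foxr2 p53LOF the OPC markers summed to 4992 CPM (6 of 6 above 0), of which Ptprz1 alone made up 4074 CPM. The astrocyte markers there summed to 3056 CPM (8 of 8 above 0). In Foxr2 alone the OPC markers summed to 1214 CPM, of which Ptprz1 made up 1135 CPM, and the astrocyte markers to 11902 CPM. Vector features stood at 995 CPM in the astrocyte-like nuclei of Foxr2 p53LOF and 179 CPM in those of Foxr2 alone. Mural markers summed to 166 CPM in Foxr2 alone (5 of 8 above 0; Kcnj8, Abcc9 and Higd1b at 0), of which Pdgfrb made up 136 CPM, and to 38.7 CPM in Foxr2 p53LOF (8 of 8 above 0). Neuron markers summed to 2000 and 312 CPM. The part of these in the Ebf1 levels was not tested. Of the 35 UMIs behind the value of Foxr2 alone, 8 were in 1 nucleus. No Ebf1 UMI was found in 424 immune-like nuclei of Foxr2 alone, with an interval up to 6.49 CPM, and 22 UMIs in 1796 such nuclei of Foxr2 p53LOF gave 2.97 CPM. The immune-like nuclei also lay in different joint clusters, mostly 12 in Foxr2 alone and 4 and 9 in Foxr2 p53LOF. Markers of B cells, the best known EBF1 lineage, summed to 36.9 CPM in Foxr2 alone (3 of 7 above 0) and 31.8 CPM in Foxr2 p53LOF (6 of 7 above 0).

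**Figure D3:**
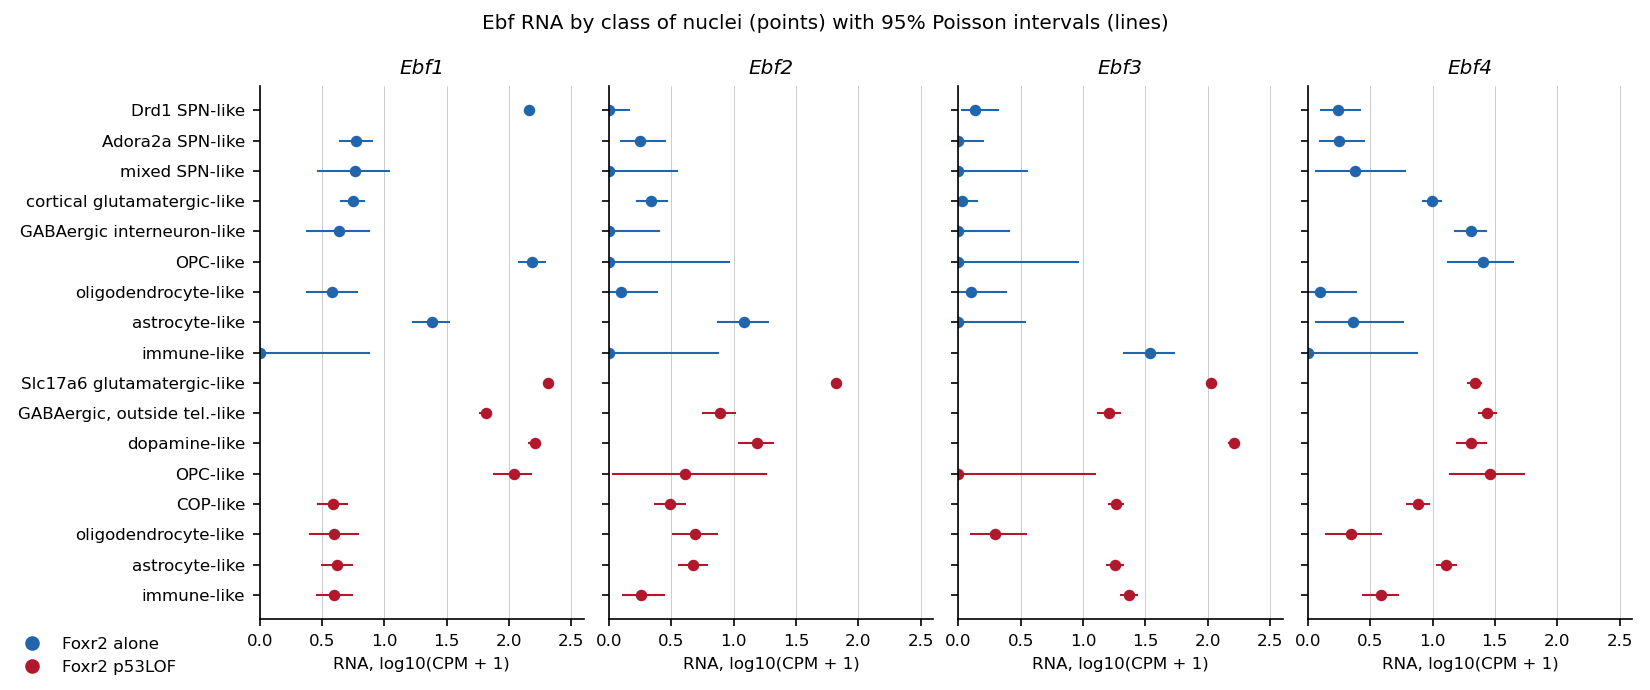
RNA of the 4 members on a log10(CPM + 1) axis in each class of at least 50 nuclei (rows; tel., telencephalon), with 95% Poisson intervals as lines. Ebf1 is high in Drd1 SPN-like, OPC-like and the named Foxr2 p53LOF neuron classes, while Ebf2 reaches 65.6 CPM and Ebf3 161 CPM in named Foxr2 p53LOF neuron classes and both are at 1.17 CPM or less in every named neuron class of Foxr2 alone.

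In the neuron-like nuclei of Foxr2 p53LOF all 4 members were above their level in Foxr2 alone. All 4 passed the 2-fold rule upwards, where 30.8% of 10602 genes passed in either direction and 12.7% upwards, and the median log2 ratio of all genes tested was -0.05. Ebf2, Ebf3 and Ebf4 had at least 10 CPM in Foxr2 p53LOF only, so their direction follows from the filter. Ebf1 was at 152 CPM (148 to 157) against 40.2 CPM (38.1 to 42.5), a log2 ratio of 1.92 (1.83 to 2.01). Ebf2 was at 52.4 CPM (49.6 to 55.3) against 0.756 CPM from 25 UMIs, a log2 ratio of 6.11 (5.55 to 6.75). Ebf3 was at 87.4 CPM (83.8 to 91.2) against 0.333 CPM from 11 UMIs, a log2 ratio of 8.04 (7.20 to 9.04). Ebf4 was at 22.7 CPM (20.9 to 24.6) against 5.84 CPM (5.04 to 6.72), a log2 ratio of 1.96 (1.72 to 2.20). The balance of the members shifted too, since 0.573 Ebf3 UMIs were counted per Ebf1 UMI in Foxr2 p53LOF and 0.00827 in Foxr2 alone, and gene length cancels in the log2 ratio of both, 6.12 (5.27 to 7.12). These values depend on the naming of a joint cluster with 1965 of these neuron-like nuclei of Foxr2 p53LOF, which went unnamed without doublet removal. Ebf1 was then lower in the remaining 291, at a log2 ratio of -1.52, with Ebf2 at 1.67 and Ebf3 at 5.59. With doublets kept and the names carried over, Ebf1, Ebf2 and Ebf3 stood at 1.85, 6.17 and 8.02. Without the unnamed neuron-like nuclei Ebf3 was at 9.48 and the ratio of Ebf3 to Ebf1 at 7.49.

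These differences are between neuron-like nuclei with different regional factors as well as between genotypes. Of 26 diencephalic and midbrain factors, 9 had at least 10 CPM, all in Foxr2 p53LOF only, so their shared direction follows from the filter. All 9 were above 2-fold, with a median log2 ratio of 4.26, where 12.7% of all genes passed upwards. Among them were Tcf7l2 at 160 CPM against 1.79 CPM and Lmx1a at 21.3 CPM against 0.0908 CPM. Of 19 telencephalic factors, 10 had at least 10 CPM and all 10 were below, with a median of -3.52, where 18.1% of all genes passed downwards. Of these, Meis2, Bcl11b and Foxp1 had at least 10 CPM in both libraries, and the direction of the rest follows from the filter too. Marker genes of OPCs (Pdgfra, Vcan, Lhfpl3 and Ptprz1, 4 of 4 with enough RNA) and 3 immune markers (C1qa, Cd74 and Dock2) were also above 2-fold in the neuron-like nuclei of Foxr2 p53LOF, 1 (Cx3cr1) was below, and their part in the Ebf differences was not tested. Lhfpl3 stood at 737 CPM in the neuron-like nuclei of Foxr2 p53LOF, over the 558 CPM of its COP-like and under the 5139 CPM of its OPC-like nuclei. Of 7 T cell markers, Skap1 alone had enough RNA and was above 2-fold, at 32.3 CPM in the neuron-like nuclei of Foxr2 p53LOF. Skap1 was at 38.5 CPM in the Slc17a6 glutamatergic-like and 7.55 CPM in the immune-like nuclei of that library. In Foxr2 alone it was at 18.8 CPM in cortical glutamatergic-like nuclei. No mural or endothelial marker had enough RNA. OPC-like nuclei of Foxr2 p53LOF had 0 UMIs of Ebf3 and 1 of Ebf2, but 108 CPM of Ebf1 and 27.8 CPM of Ebf4, the latter above the 22.7 CPM of the neuron-like nuclei, with an interval of 12.7 to 52.7 that spans it. The immune-like nuclei of Foxr2 p53LOF had 22.3 CPM of Ebf3, under the 87.4 CPM of the neuron-like nuclei.

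Ebf1 RNA was not limited to striatal neurons. It was at 205 CPM (197 to 213) in the Slc17a6 glutamatergic-like nuclei of Foxr2 p53LOF, named for a vesicular glutamate transporter of the thalamus and midbrain, above the 145 CPM of Drd1 SPN-like nuclei. Dopamine-like nuclei held 160 CPM (145 to 176), which overlaps the intervals of the Drd1 SPN-like nuclei and of the OPC-like nuclei of Foxr2 alone. The GABAergic-like nuclei outside the telencephalon held 64.0 CPM (57.5 to 71.0), and the named neuron classes of Foxr2 alone other than Drd1 SPN-like were all at 4.97 CPM or less. The Ebf1 promoter held 27.9 ATAC CPM in Slc17a6 glutamatergic-like, 18.2 in the GABAergic-like and 16.6 in dopamine-like nuclei. The last has an interval of 8.86 to 28.5 that spans both others, so its place in the order is not resolved.

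Ebf3 led in the dopamine-like nuclei, which held 161 CPM (146 to 177), with a UMI in 68.1% of nuclei and 25.6 promoter ATAC CPM. Slc17a6 glutamatergic-like nuclei followed at 106 CPM (100 to 112), 36.8% and 21.6, and the GABAergic-like nuclei at 15.2 CPM (12.1 to 18.9), 8.59% and 11.6. Over all neuron-like nuclei the share with an Ebf3 UMI was 29.1%, and after thinning to 1000 UMIs 7.20% (6.17 to 8.35), against 0.0661% in oligodendrocyte-like and 1.98% in immune-like nuclei. Without doublet removal the thinned share was 0.687% (0.0833 to 2.46) in the 291 nuclei still named neuron-like, an interval that holds the immune-like share, and with the names carried over it was 6.38%. In Foxr2 alone Ebf3 was near 0 throughout the SPN-like nuclei, at 3 UMIs in 2344 nuclei or 0.187 CPM. Of its 11 UMIs in neuron-like nuclei, 7 came from unnamed ones.

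Ebf3 was not confined to neurons. In Foxr2 p53LOF it was at 22.3 CPM (19.0 to 25.9) in immune-like, 17.3 CPM (15.0 to 19.9) in COP-like and 17.1 CPM (14.6 to 19.8) in astrocyte-like nuclei, values with overlapping intervals, and at 0.981 CPM (0.267 to 2.51) in oligodendrocyte-like nuclei. In Foxr2 alone the immune-like nuclei had the highest Ebf3 level of the classes of at least 50 nuclei, 33.4 CPM (20.1 to 52.2) from 19 UMIs in 18 of 424 nuclei, and the unnamed neuron-like nuclei followed at 8.15 CPM from 7 UMIs. After thinning, 3.21% of the immune-like nuclei had a UMI, and none of the oligodendrocyte-like nuclei, at medians of 1131 and 1172 UMIs. Their promoter held 27.8 ATAC CPM (20 to 37.5), against 3.17 in the neuron-like nuclei of that library, and a peak 4.72 kb inside the gene held 25.1. The immune-like nuclei of Foxr2 p53LOF lay in other joint clusters and had a lower promoter value, 7.91 ATAC CPM (5.93 to 10.3), with overlapping RNA intervals. OPC markers summed to 722 CPM in them, of which Ptprz1 made up 496 CPM, against 58.1 CPM in the immune-like nuclei of Foxr2 alone (6 of 6 above 0 in both). Oligodendrocyte markers summed to 1998 against 836 CPM (8 of 8 above 0 in both) and vector features to 359 against 22.9 CPM. The part of all these in the Ebf3 values was not tested.

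Among the named neuron classes Ebf2 was highest in the Slc17a6 glutamatergic-like nuclei, with 779 UMIs in 1067 nuclei. The unnamed nuclei, 522 of the 2264 neuron-like nuclei of Foxr2 p53LOF, held 468 of their 1322 Ebf2 UMIs. As a group the unnamed nuclei thus stood above the Slc17a6 glutamatergic-like class in CPM. Slc17a6 glutamatergic-like nuclei held 65.6 CPM (61 to 70.3), dopamine-like nuclei 14.3 CPM (10.1 to 19.6) and the GABAergic-like nuclei 6.71 CPM (4.72 to 9.25), where 18 of 37 UMIs came from 1 nucleus. In Foxr2 alone no UMI was found in the 1145 Drd1 SPN-like nuclei, with an interval up to 0.451 CPM. Its highest class of at least 50 nuclei there was the astrocyte-like nuclei, at 11.2 CPM (6.52 to 17.9, 17 UMIs in 15 of 428 nuclei), and the 35 fibroblast-like nuclei of Foxr2 p53LOF held 170 CPM from 15 UMIs.

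Ebf4 was at like levels in the named neuron classes of Foxr2 p53LOF. The GABAergic-like nuclei outside the telencephalon held 26.5 CPM (22.4 to 31.1), Slc17a6 glutamatergic-like 20.8 CPM (18.3 to 23.6) and dopamine-like 19.5 CPM (14.6 to 25.6), and neighbours in this order overlap. In Foxr2 alone the levels fell from OPC-like, 24.3 CPM (12.2 to 43.6), and GABAergic interneuron-like, 19.4 CPM (14.2 to 25.7), to cortical glutamatergic-like, 8.98 CPM (7.46 to 10.7), and to 0.734 and 0.776 CPM in Drd1 and Adora2a SPN-like nuclei. OPC-like nuclei of Foxr2 p53LOF held 27.8 CPM (12.7 to 52.7), and their Ebf4 promoter 31.9 ATAC CPM (14.9 to 59.5), beside 34.2 in Foxr2 alone. The promoter value was the highest of any class of at least 50 nuclei in Foxr2 p53LOF. Its interval overlaps that of the GABAergic-like nuclei, at 19.3 (13.9 to 26.2), so the order is not resolved.

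The 16 neuron-like clusters of Foxr2 p53LOF used the members in different combinations. An unnamed cluster of 48 nuclei held 716 CPM of Ebf1 (647 to 792) and 397 CPM of Ebf3 with 1.87 CPM of Ebf2. An unnamed cluster of 38 nuclei with Pax3 among its leading genes held 674 CPM of Ebf2 (584 to 773) and 23.2 CPM of Ebf3. An unnamed cluster of 35 nuclei held 441 CPM of Ebf2 and 472 CPM of Ebf3 (400 to 553) with a UMI of Ebf3 in 91.4% of nuclei and of Ebf4 in 2.86%. At the other end, 244 nuclei led by Sim1 and Sfta3-ps held 13.2, 1.53 and 3.56 CPM of Ebf1, Ebf2 and Ebf3, and a Slc17a6 glutamatergic-like cluster of 94 nuclei had 0 UMIs of Ebf2 and of Ebf3 beside 52.9 CPM of Ebf1. Ebf4 stayed between 3.06 and 40.9 CPM in all 16. These small clusters were singled out after their values were seen, Ebf genes are among the leading genes of several, and 23.1% of the neuron-like nuclei of this library were in unnamed clusters.

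**Figure D4:**
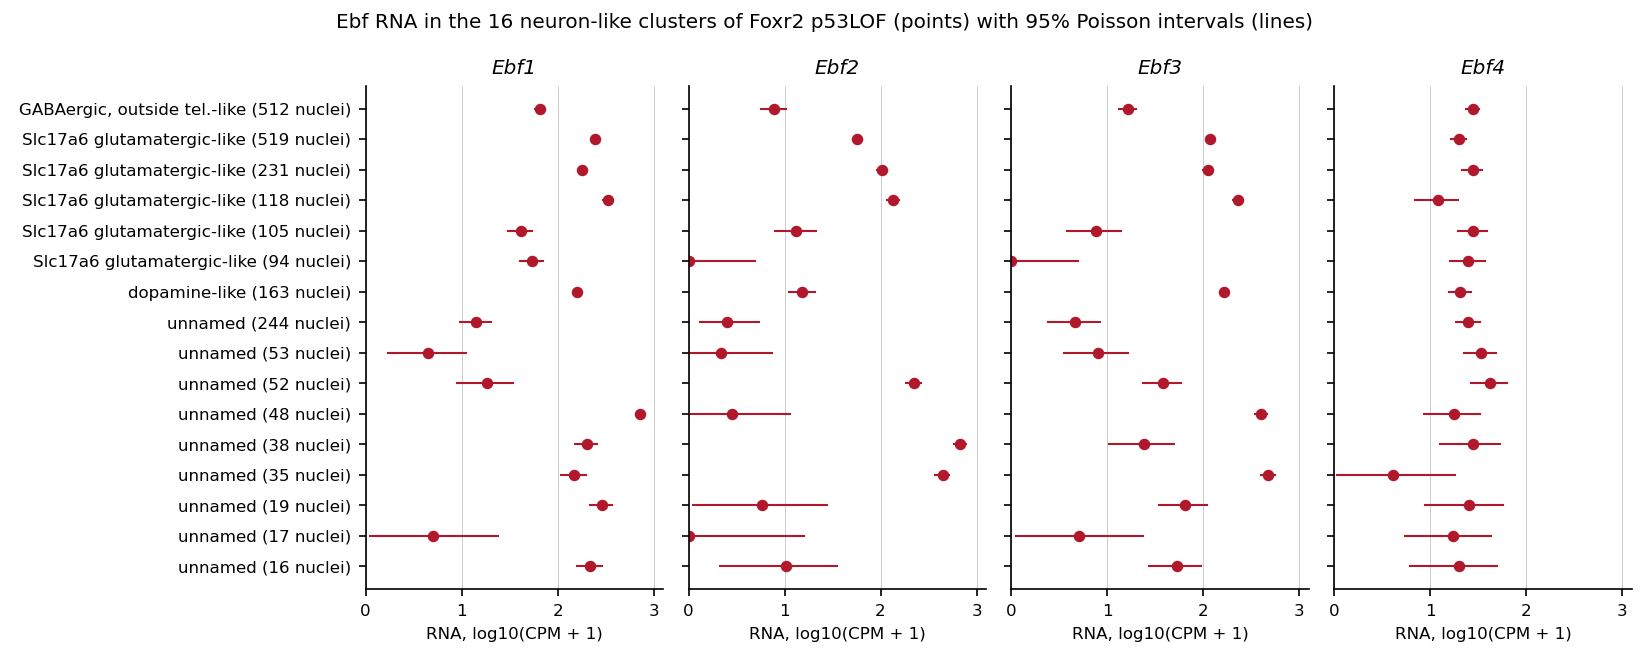
RNA of the 4 members on a log10(CPM + 1) axis in the 16 neuron-like clusters of Foxr2 p53LOF (rows, with the number of nuclei; tel., telencephalon), with 95% Poisson intervals. Ebf1, Ebf2 and Ebf3 range from near 0 to 716, 674 and 472 CPM, while Ebf4 stays between 3.06 and 40.9 CPM.

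Within the Slc17a6 glutamatergic-like class, nuclei with a UMI of any of the first 3 members more often had a UMI of another of them. The class pools clusters with different Ebf levels, and the part of this pooling was not tested. Of 431 nuclei with Ebf1, 53.6% had Ebf3 and 27.1% Ebf2, against 25.5% and 10.7% of the 636 without. Of 393 nuclei with an Ebf3 UMI, 58.8% also had Ebf1, against 29.7% of the 674 without, and of 185 nuclei with Ebf2, 71.9% had Ebf3, against 29.5% of the 882 without. Nuclei with a UMI were somewhat deeper, with medians of 10714 against 9756 UMIs for Ebf3 and 11252 against 9848.5 for Ebf2, and the part of depth was not tested. Ebf4 went the other way, since 26.9% of 212 nuclei with Ebf4 had Ebf3 against 39.3% of 855 without. In dopamine-like nuclei Ebf1 accompanied Ebf3 in 36.9% of 111 nuclei and was in 48.1% of the 52 nuclei without Ebf3. In Drd1 SPN-like nuclei the other members were near absent either way, as 0, 1 and 1 of the 544 nuclei with Ebf1 had a UMI of Ebf2, Ebf3 and Ebf4, and 0, 2 and 4 of the 601 without.

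Promoter accessibility was set against RNA in neuron-like and oligodendrocyte-like nuclei. Between these classes of Foxr2 p53LOF, 3 of 4 members passed the 2-fold rule upwards, where 25.5% of 14322 genes passed in either direction and 19.1% upwards. These members, Ebf1, Ebf3 and Ebf4, had at least 10 ATAC CPM in the neuron-like nuclei only, so their direction follows from the filter. The Ebf3 promoter held 17.4 ATAC CPM against 1.48, a log2 ratio of 3.55 (2.40 to 5.02). Without doublet removal, where most of these neuron-like nuclei went unnamed, that ratio was -0.10, and with the names carried over it was 2.31. Ebf1 stood at 22.7 against 3.33 and Ebf4 at 17.8 against 2.96, while Ebf2 stood at 9.05 (7.25 to 11.2) against 14.6 (11.1 to 18.8), which did not pass the rule and have intervals that overlap. In Foxr2 alone only Ebf2 had enough counts and it passed downwards, where 32.7% of 13708 genes passed in either direction and 17.4% downwards. Ebf2 had enough counts there in the oligodendrocyte-like nuclei only, so its direction follows from the filter too. Its promoter held 5.45 ATAC CPM in neuron-like and 28.1 (24.9 to 31.5) in oligodendrocyte-like nuclei, although 1 Ebf2 UMI was counted in 3020 oligodendrocyte-like nuclei. The Ebf1 promoter of Foxr2 alone stood at 9.83 against 1.20, a log2 ratio of 3.03 (2.27 to 4.06).

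Open peaks beside little RNA were seen at more members. In oligodendrocyte-like nuclei an intronic Ebf4 peak near 59 kb held 10.8 ATAC CPM in Foxr2 alone and 10.5 in Foxr2 p53LOF, at an Ebf4 level of 0.254 and 1.23 CPM. In SPN-like nuclei a pair of Ebf3 peaks at 25.9 and 27.5 kb held 9.31 and 13.8 ATAC CPM in Drd1 SPN-like and 9.80 and 12.1 in Adora2a SPN-like nuclei, with 3 and 0 UMIs of Ebf3. In the neurons that did hold Ebf3 RNA, another intronic peak, at 12.8 kb, had 16 ATAC CPM in dopamine-like and 10.6 in Slc17a6 glutamatergic-like nuclei, against 0.298 in immune-like nuclei. OPC-like nuclei of Foxr2 p53LOF had an Ebf3 promoter of 21.8 ATAC CPM (8.40 to 46.1) with 0 UMIs in 94 nuclei, whose interval reaches 11.4 CPM.

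**Figure D5:**
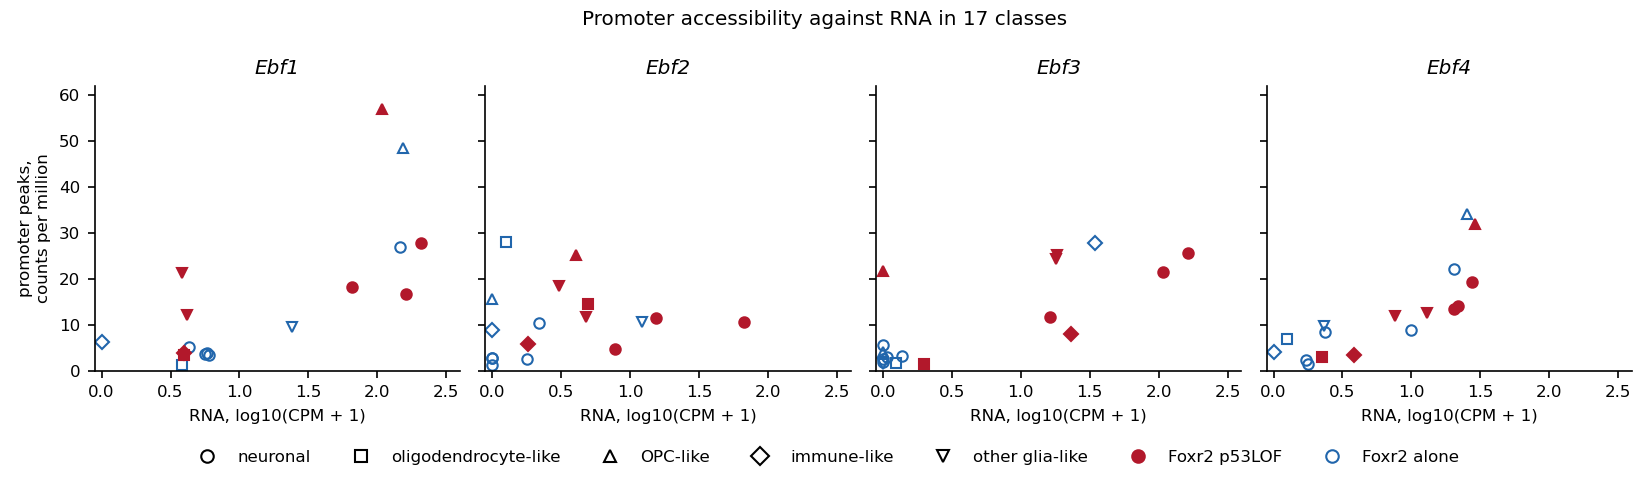
RNA on a log10(CPM + 1) axis (horizontal) against promoter ATAC CPM (vertical) for the 4 members in 17 classes of at least 50 nuclei; shapes give the kind of class and colours the library. Ebf2 shows its highest promoter value, 28.1, in a class of Foxr2 alone with 0.254 CPM. The Ebf2 promoter value sums 2 peaks in Foxr2 alone and 1 in Foxr2 p53LOF, so its height is not the same measure in both libraries.

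The known partners of EBF factors, listed with earlier results in view, were mixed. Of 11 partners, 10 had at least 10 CPM in neuron-like nuclei of either library, and their median log2 ratio between Foxr2 p53LOF and Foxr2 alone was 0.21, beside -0.05 over all genes tested. Of these 10, 3 passed the rule upwards and 1 downwards, a share near the 30.8% of all genes. The zinc finger proteins Zfp423 and Zfp521, which bind EBF1, were above 2-fold in Foxr2 p53LOF, at 84.7 against 6.47 CPM and 108 against 25.3 CPM, as was Pax5 at 12.6 against 0.0908 CPM. Foxo1, a forkhead factor that acts beside EBF1 in B cells, was below, at 9.55 against 85.4 CPM. Between the SPN classes, 1 of 8 partners with enough RNA passed the rule, Zfp521 at 72.7 CPM in Drd1 SPN-like and 3.88 CPM in Adora2a SPN-like nuclei, the direction of Ebf1, where 1.28% of all genes passed. Between SPN-like and other neuron-like nuclei, where 17.5% of all genes passed, 4 of 9 partners did, Zfp521 and Foxo1 higher and Zfp423 and the E protein gene Tcf4 lower. Of 9 B-lineage targets of EBF1, Pax5 alone had at least 10 CPM in neuron-like nuclei, and it led an unnamed cluster of 53 nuclei of Foxr2 p53LOF in which Ebf1 was at 3.49 CPM.

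EBF motifs were looked for in the peaks over the members themselves. Matches to TCCCNNGGGA lay inside Ebf4 and Ebf1, each shown with 10 bases on both sides and the motif in capitals.
Ebf4 intron, chr2:130362872-130362881, peak in all 3 libraries: cgcctggtagTCCCCAGGGAtgtgtggctc
Ebf4 exon, chr2:130295237-130295246, peak in Foxr2 alone replicate 2: cggctcccgcTCCCCAGGGAgcggcggcgg
Ebf1 intron, chr11:44832463-44832472, peak in Foxr2 p53LOF: cacctccgtgTCCCTAGGGAgctaggatca
The peak around the Ebf1 match held 6.61 ATAC CPM in Slc17a6 glutamatergic-like, 3.49 in the GABAergic-like and 2.56 in unnamed neuron-like nuclei. It held 1.1 in COP-like, 0.73 in astrocyte-like, 0.640 (1 count) in dopamine-like, 0.493 in oligodendrocyte-like, 0.224 in immune-like and 0 in OPC-like nuclei. A count of 0 in these OPC-like nuclei has an interval up to 12.4 ATAC CPM, so their place in the order is not resolved. The peak around the intronic Ebf4 match held 2.86 in neuron-like and 3.21 in oligodendrocyte-like nuclei of Foxr2 p53LOF. It ranged from 0 in OPC-like nuclei, with the same upper limit, to 4.87 in astrocyte-like nuclei, so here too the place of the OPC-like nuclei is not resolved. A match is a description of letters and not a bound site. Across all peaks outside promoters, motif peaks took 2.58% to 3.08% of the counts of a class in Foxr2 p53LOF and 2.6% to 3.18% in Foxr2 alone, where 2.50% and 2.35% of peaks hold the motif. Drd1 SPN-like nuclei stood at 2.68% and Adora2a SPN-like at 2.62%. These shares pool 2763 motif peaks, so they cannot show whether a few of the peaks differ with Ebf1 RNA. The highest shares were those of OPC-like nuclei in Foxr2 p53LOF and oligodendrocyte-like nuclei in Foxr2 alone. In Foxr2 alone the counts of OPC-like, immune-like and oligodendrocyte-like nuclei lay in peaks of higher G and C share, 51.5%, 51.3% and 51.1%, than those of the SPN classes, 48.1%, and the part of base composition was not tested.

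The genes most like each member were taken by Pearson's r of log2(CPM + 1) over 17 classes of at least 50 nuclei among 14700 genes, a description because classes share libraries and depth. For Ebf1 these were Pcdhb11, at r = 0.82, and Gm32834, Sgcd, Gm35835 and Lrrn3, all at 0.80. For Ebf2 they were Bdnf at 0.85, Nbeal1 at 0.84, Cage1 and Zim1 at 0.82 and Spag16 at 0.81. Ebf3 was most like Ipo9 at 0.87, Srrm2, Gm38190 and Dpp9 at 0.86 and Fam193b at 0.85, and Ebf4 most like Gm2824 at 0.96, Prr36 at 0.95, Olfm2 at 0.94 and Dpysl3 and Mast2 at 0.93. No member was among the 5 most like another. Between members r ran from 0.12 for Ebf1 with Ebf3 to 0.57 for Ebf2 with Ebf3.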

How the data were processed

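Nuclei of 3 multiome libraries were profiled for RNA and open chromatin, and the counts of 2 libraries, 1 per genotype, entered the comparisons. The deposited counts (UMIs for genes, transposition events for peaks) were made by the authors with Cell Ranger ARC 2.0.0 on mm10 (submitters' processing notes), with peaks called per library.

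Nuclei with at most 5% mitochondrial UMIs, at least 400 genes, at least 400 fragments (events divided by 2) and no value over the library's upper limits were kept, and 353 (Foxr2 p53LOF) and 540 (Foxr2 alone) doublets called by Scrublet were removed. Clustering used scanpy 1.11.5 with leidenalg 0.10.2 (2000 variable genes without the Ebf genes, 30 components, resolution 0.5). Classes were named from marker lists, with at least 3 markers and thresholds set after the data were seen. Where nearly all nuclei of a class came from 1 library, the class and the library cannot be told apart. Counts were summed per class to CPM, with 95% exact Poisson intervals (for peaks, on events divided by 2). Promoter peaks overlap 1000 bases on each side of the GENCODE vM21 gene start. The members, lists (EBF partners, B-lineage targets, regional factors, cell type markers) and peaks shown were chosen with earlier results of these data known. Named were the members, list genes past 2-fold, and the 5 genes most like each member. The 2-fold rule was tested on simulated data. The alternatives were other filters, no doublet removal, other scaling, promoter windows and thinning, and a resolution of 1. Some items are not reported here.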

Additional observations from a re-analysis of the deposited data

Results flagged for a closer look

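For 3 members the difference between neuron-like nuclei and another class had opposite signs in the libraries, and with 1 library per genotype this was not tested. Ebf1 in neuron-like minus OPC-like nuclei was 44.5 CPM in Foxr2 p53LOF (152 and 108 CPM) and -112 CPM in Foxr2 alone (40.2 and 153 CPM). The Ebf1 intervals of both classes overlap in Foxr2 p53LOF, so the sign there is not resolved by the counts. Ebf2 in neuron-like minus astrocyte-like nuclei was 48.7 CPM (52.4 and 3.75 CPM) and -10.4 CPM (0.756 and 11.2 CPM). Ebf3 in neuron-like minus immune-like nuclei was 65.2 CPM (87.4 and 22.3 CPM) and -33.1 CPM (0.333 and 33.4 CPM). All 3 positive differences rest on whether a joint cluster with 1965 of the neuron-like nuclei of Foxr2 p53LOF was named. Without doublet removal that cluster went unnamed. The nuclei still named neuron-like then held 13.6 CPM of Ebf1, 2.33 CPM of Ebf2 and 11.3 CPM of Ebf3. Each was under the level given here for the other class. With doublets kept and the names carried over, the neuron-like nuclei held 149, 51.8 and 86.1 CPM, each above that level. The neuron-like nuclei of both libraries are of different classes, so the sign of each difference cannot be told apart from class makeup.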

How the results depend on the processing

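Values are log2 ratios unless given as percent. Ebf1 between Drd1 and Adora2a SPN-like nuclei kept its value in every alternative, at 4.78 to 5.06 for RNA and 2.79 to 3.17 for promoter peaks. Of the values under other settings 65 stayed within the counting error, 15 moved and 2 reversed, and of those added after seeing the data 34 stayed and 5 moved. Both reversals came without doublet removal, where Ebf1 between the genotypes was -1.52 and the Ebf3 promoter, neuron-like over oligodendrocyte-like, -0.10, with Ebf2 at 1.67 and Ebf3 at 5.59 between the genotypes, the Ebf3 share at 0.687% and Ebf1 in SPN-like over other neuron-like nuclei at 4.02. A joint cluster with 1965 of the neuron-like nuclei went unnamed there, and with names carried over (an alternative added after seeing the data) the last ratio was 2.83 and the Ebf3 promoter 2.31. With limits set on peak counts Ebf1 was 2.57 in SPN-like over other neuron-like nuclei and 1.76 between the genotypes. As UMIs per nucleus these were 3.26 and 2.44, and Ebf4 between the genotypes 2.47. A minimum of 1000 genes and peak counts gave 1.95 for the Ebf1 promoter over oligodendrocyte-like nuclei in Foxr2 alone, and a promoter window of 500 bases gave 2.48 for SPN-like over other neuron-like nuclei. Shares of Ebf3 and Ebf1 were 29.1% and 24.2% without thinning and 12.7% and 11.1% at 2000 UMIs. Without unnamed neuron-like nuclei (also added later) Ebf1 in SPN-like over other nuclei was 4.12, Ebf3 between the genotypes 9.48 and Ebf3 over Ebf1 7.49. Apart from the unnamed cluster, the cause of these shifts was not tested. No paired analysis was possible because the genotypes share only 1 replicate number, Foxr2 p53LOF having a single library. Depth limits the classes under 50 nuclei and every value that rests on a few UMIs, and the intervals cover counting error only.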
